A study of Homo sapiens with 8 samples.

Results

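The DNA replication machinery was followed here as 51 genes, chosen by name for their place in origin licensing, helicase activation, DNA synthesis and fork protection. All 51 were found in the count table, among 17547 genes tested. They were measured in a pooled growth screen in K562, an established human leukaemia cell line, here expressing dCas9-KRAB, a catalytically dead Cas9 fused to a repressor domain. In such a screen each cell carries a single guide RNA (sgRNA) that brings dCas9-KRAB to the promoter of its target and represses it. Cells whose knockdown slows division or kills them leave fewer descendants, so their sgRNA takes a smaller share of the counts at the end. Slower division and cell death cannot be told apart in such counts, and neither transcript nor protein levels were measured, so how far each member was knocked down is not known.

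The tested cells stably expressed mutant uL16 and the comparison cells stably expressed wild-type uL16, a protein of the large ribosomal subunit. The sample titles call the mutant line delta, and the labels do not name the mutation. There were 2 libraries at day 9 and 2 at day 0 for the mutant line, and 2 at day 9 and 2 at day 0 for the wild-type line. All 8 libraries came from cells with dCas9-KRAB and the genome-wide sgRNA library that had spent 3 days in puromycin at 1 µg/ml. Nothing in the labels says that the replicates of a group were separate cultures or that either line was made more than once, so p-values measure only the spread between these libraries.

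Replication of DNA begins when the origin recognition complex, with CDC6 and CDT1, loads the MCM helicase onto origins in G1. In S phase the kinase CDC7 with DBF4, together with cyclin-dependent kinases, converts the loaded helicase into an active one by recruiting CDC45 and the GINS complex. Polymerase alpha-primase then lays down primers, the RFC complex loads the PCNA sliding clamp, polymerase epsilon copies mainly the leading strand and polymerase delta mainly the lagging strand, and FEN1 and LIG1 join the lagging-strand fragments. Most of these proteins have no backup in dividing cells, and many of their genes are transcribed under the control of E2F factors before S phase.

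CRISPR interference acts at promoters, so the 250 bases before the start of 5 members are shown. The sgRNAs were not placed in these sequences, so the windows do not show where they bind. The members are MCM2, GINS1 and RFC3, every sgRNA of which fell in both lines, and CDT1 and PCNA, whose sgRNAs differed widely among themselves. The sequences are from RefSeq on GRCh38.p14, written 5′ to 3′ on the strand of the gene. Capitals mark the E2F words TTTCCCGC, TTTGGCGC, TTTCGCGC and TTTGCCGC and the word CCAAT, each on either strand. No E2F word contains CCAAT.
MCM2, chr3:127598161-127598410, plus strand: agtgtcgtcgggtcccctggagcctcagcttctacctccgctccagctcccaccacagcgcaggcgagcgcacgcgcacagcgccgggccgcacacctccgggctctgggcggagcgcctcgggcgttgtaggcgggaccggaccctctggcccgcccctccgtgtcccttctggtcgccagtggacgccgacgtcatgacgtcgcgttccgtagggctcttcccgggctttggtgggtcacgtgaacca
GINS1, chr20:25407423-25407672, plus strand: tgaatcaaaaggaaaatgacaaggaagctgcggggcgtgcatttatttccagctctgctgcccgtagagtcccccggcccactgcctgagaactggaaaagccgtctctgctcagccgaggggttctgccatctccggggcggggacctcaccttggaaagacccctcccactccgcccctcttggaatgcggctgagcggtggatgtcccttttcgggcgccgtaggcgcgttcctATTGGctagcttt
RFC3, chr13:33817899-33818148, plus strand: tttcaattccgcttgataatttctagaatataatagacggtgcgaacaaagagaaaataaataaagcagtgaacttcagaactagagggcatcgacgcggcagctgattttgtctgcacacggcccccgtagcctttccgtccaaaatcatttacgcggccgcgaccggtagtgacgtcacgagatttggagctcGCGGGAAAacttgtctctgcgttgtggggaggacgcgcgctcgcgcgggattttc
CDT1, chr16:88803539-88803788, plus strand: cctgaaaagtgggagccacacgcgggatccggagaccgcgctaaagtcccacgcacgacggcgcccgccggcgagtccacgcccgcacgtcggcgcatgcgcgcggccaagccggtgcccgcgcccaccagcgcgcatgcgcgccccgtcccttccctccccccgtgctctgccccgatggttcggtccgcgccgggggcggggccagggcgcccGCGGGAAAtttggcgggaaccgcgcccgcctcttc
PCNA, chr20:5126623-5126872, minus strand: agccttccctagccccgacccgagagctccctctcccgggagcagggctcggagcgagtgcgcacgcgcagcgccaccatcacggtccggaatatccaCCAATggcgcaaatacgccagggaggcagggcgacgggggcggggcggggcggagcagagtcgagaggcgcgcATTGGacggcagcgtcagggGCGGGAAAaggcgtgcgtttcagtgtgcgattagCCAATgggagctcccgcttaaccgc

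Of the 5 promoters, RFC3, CDT1 and PCNA held an E2F word, at positions -55 to -48, -35 to -28 and -59 to -52 from the start. GINS1 held a single CCAAT at -13 to -9 and PCNA held 3, while MCM2 held none of these letters in this window. A promoter was found for 45 of the 51 members. An E2F word was present in 13 of the 45 (28.9%), against 761 of all 27305 promoters of the same length (2.79%). CCAAT was present in 25 of the 45 (55.6%), against 33.0% of all promoters. The CHR words TTTGAA and TTCGAA were present in 1 of the 45 (2.22%), that of MCM6, against 14.6% of all promoters. These matches describe the windows and were not set against the growth effects.

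Each member except CDT1 was measured with 5 sgRNAs, and CDT1 with 4, which gave 254 member sgRNAs. A further 255 sgRNAs listed for the members had a count of 0 in every library and 1 fell under the minimum mean count of 20. Zero counts were as common in the table as a whole, where 103686 of 209070 listed sgRNAs (49.6%) were never seen. Library totals were 39233340 to 143585751 counts, and the median count per sgRNA was 324 to 1209. No member sgRNA was shared with another gene, and no member had sgRNAs for a separate alternative promoter. Levels below are CPM, the summed counts of a gene's sgRNAs relative to the TMM-scaled total of all genes tested. Changes are log2 ratios of these sums with their standard errors (SE) from edgeR's quasi-likelihood test, and adjusted p is the Benjamini-Hochberg value over all 17547 genes, with a threshold of 0.05.

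Over the 9 days, the summed sgRNA levels of most of the replication genes fell in both lines. In mutant cells 31 of the 51 members fell (60.8%), where 9.07% of all genes tested fell, and none rose, where 0.798% of all genes rose. In wild-type cells 29 of 51 fell (56.9%), where 9.28% of all genes fell, and none rose, where 0.986% of all genes rose. The members' median log2 change was -0.59 in mutant and -0.61 in wild-type cells, while the median of all genes was 0.01 in each line. Falls of more than 1 on the log2 scale were seen for 15 members in mutant cells, where 3.39% of all genes fell as far, and for 20 in wild-type cells, where 3.34% did. At an unadjusted p under 0.05, 1 member was higher in mutant cells and 3 were higher in wild-type cells, where 5.04% and 6.63% of all genes were, so these counts do not exceed the background. DESeq2 called none higher.

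The members called in the 2 lines were nearly the same. All 29 members that fell in wild-type cells also fell in mutant cells, POLD1 and RFC2 passed the threshold in mutant cells only, and 20 passed in neither. Both POLD1 and RFC2 were also called in wild-type cells with control-sgRNA scaling, DESeq2 or limma on mean log2 CPM. Across the 51 members the log2 changes of the 2 lines, which share no libraries, had a Pearson correlation of 0.949. Both lines were read with the same sgRNAs, so a strong or weak sgRNA acts on both axes. Both day 9 libraries lay below both day 0 libraries for 38 members in mutant and 42 in wild-type cells, where 24.5% and 24.2% of all genes did so. They lay above for 3 members in mutant and 4 in wild-type cells, where 23.8% and 22.9% of all genes did.

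**Figure D1:**
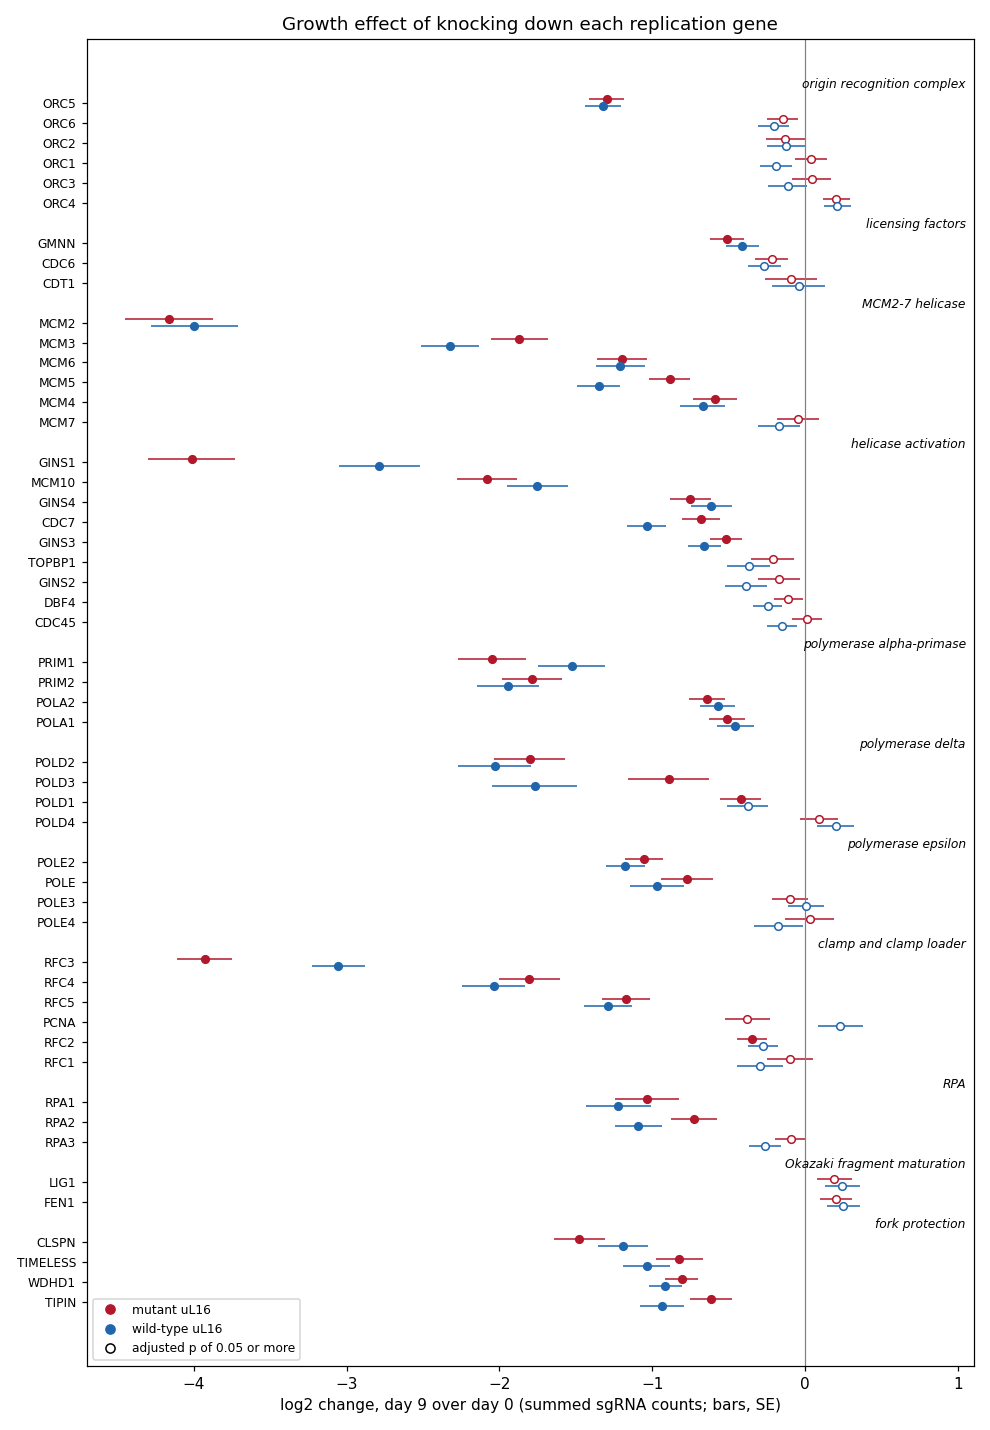
Log2 change of the summed sgRNA counts, day 9 over day 0, for the 51 members by role (bars, SE), in mutant (red) and wild-type (blue) uL16 cells, 2 libraries per group. Filled points passed the threshold; MCM2, GINS1 and RFC3 lie farthest to the left, and most of the origin recognition complex and both Okazaki fragment genes lie near 0.

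The origin recognition complex, which marks the places where helicases are loaded, held a single subunit of 6 that fell. This was ORC5, which fell by 1.30 (SE 0.12) in mutant and by 1.32 (SE 0.12) in wild-type cells. ORC1, ORC2, ORC3, ORC4 and ORC6 had log2 changes between -0.15 and 0.20 in mutant and between -0.21 and 0.21 in wild-type cells, and none passed. ORC4, the highest of them, was called higher in mutant cells when the first mutant day 9 library was left out (adjusted p = 0.0355, edgeR).

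Among the licensing factors, GMNN alone fell, by 0.51 (SE 0.11) in mutant and by 0.41 (SE 0.11) in wild-type cells. GMNN encodes geminin, which holds CDT1 inactive after S phase begins and so prevents a repeat round of licensing. CDC6 and CDT1, which load the helicase with the origin recognition complex, did not pass: CDC6 had log2 changes of -0.22 in mutant and -0.27 in wild-type cells, and CDT1 had -0.09 and -0.04. Leaving out the first mutant day 0 library ended the call of GMNN in mutant cells, and leaving out the first wild-type day 0 library ended it in wild-type cells. The separate sgRNAs of CDT1, described below, did not all behave like their sum.

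The MCM2-7 complex is the ring-shaped helicase that unwinds the DNA ahead of the fork, and 5 of its 6 subunits fell in each line. MCM2 had the most negative log2 change of all members. Its sgRNAs stood at 1.08 and 1.28 CPM in mutant day 9 libraries, against 21.1 and 22.2 CPM in mutant day 0 libraries. Wild-type libraries gave 1.90 and 1.67 CPM at day 9, against 29.8 and 27.1 CPM at day 0. The groups did not overlap in either line, and 5.46% of the starting level was left in mutant and 6.27% in wild-type cells. These were log2 changes of -4.16 (SE 0.29) in mutant cells, with an adjusted p of 1.99e-13, and -4.00 (SE 0.28) in wild-type cells, with an adjusted p of 3.89e-13, both from edgeR. Among all genes MCM2 ranked 9 from the bottom in mutant and 3 from the bottom in wild-type cells.

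MCM3 fell as well, to 9.70 and 8.30 CPM in mutant cells at day 9, against 31.8 and 33.6 CPM at day 0. In wild-type cells it fell to 6.24 and 7.54 CPM at day 9, against 32.4 and 36.7 CPM at day 0. Its log2 changes were -1.87 (SE 0.19) and -2.32 (SE 0.19), each with separate groups. MCM5 was at 26.5 and 21.8 CPM in mutant cells at day 9, against 41.2 and 47.9 CPM at day 0. For wild-type cells the MCM5 levels were 18.8 and 19.9 CPM at day 9, against 48.3 and 50.3 CPM at day 0. The log2 changes of MCM5 were -0.89 (SE 0.14) in mutant and -1.35 (SE 0.14) in wild-type cells, and day 9 lay below day 0 in each line. MCM6 fell by 1.20 in mutant and by 1.21 in wild-type cells, with SEs of 0.16. MCM4 fell by 0.59 (SE 0.14) in mutant cells, where the call was lost without the second mutant day 9 library, and by 0.67 (SE 0.15) in wild-type cells. MCM7, although a subunit of the same ring, had log2 changes of -0.05 (SE 0.14) in mutant and -0.17 (SE 0.14) in wild-type cells and did not pass.

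Helicase activation was uneven, with 5 of 9 members falling in each line. GINS1, a subunit of the 4-part GINS complex that travels with the helicase, was reduced to 1.77 and 1.70 CPM in mutant cells at day 9, against 26.6 and 29.0 CPM at day 0. In wild-type cells it stood at 2.62 and 4.75 CPM at day 9, against 28.0 and 22.9 CPM at day 0. All day 9 libraries lay far below all day 0 libraries, and the 2 wild-type day 9 libraries were the more spread. The log2 changes were -4.01 (SE 0.28) in mutant and -2.78 (SE 0.26) in wild-type cells, with adjusted p-values of 2.9e-13 and 2.94e-10 from edgeR. Its partner GINS4 fell by 0.75 in mutant and by 0.61 in wild-type cells, and GINS3 fell by 0.52 and 0.66. GINS2 did not pass, with log2 changes of -0.17 in mutant and -0.39 in wild-type cells.

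MCM10, which binds the helicase and is needed to start unwinding, was at 6.08 and 8.36 CPM in mutant cells at day 9, against 32.0 and 30.0 CPM at day 0. The wild-type values were 9.02 and 9.21 CPM at day 9, against 32.6 and 28.8 CPM at day 0. Day 9 was below day 0 throughout, with log2 changes of -2.08 (SE 0.20) in mutant and -1.75 (SE 0.20) in wild-type cells. CDC7, the kinase that phosphorylates the loaded helicase, was at 29.5 and 27.9 CPM in mutant cells at day 9, against 46.1 and 45.9 CPM at day 0. In the wild-type line it was at 22.4 and 26.0 CPM at day 9, against 50.4 and 48.9 CPM at day 0. The log2 changes of CDC7 were -0.68 (SE 0.13) in mutant and -1.04 (SE 0.13) in wild-type cells. Without the most abundant sgRNA of each gene the CDC7 call in mutant cells was lost (adjusted p = 0.0596, edgeR). DBF4, the activating subunit of CDC7, did not pass, with -0.11 in mutant and -0.24 in wild-type cells. Nor did CDC45, an essential part of the active helicase, with 0.01 in mutant and -0.15 in wild-type cells, or TOPBP1, which brings GINS to the helicase, with -0.21 and -0.37.

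Every member of polymerase alpha-primase, which starts each new strand with an RNA-DNA primer, fell in both lines. PRIM1, the catalytic primase subunit, was at 9.70 and 5.96 CPM in mutant cells at day 9, against 31.8 and 31.7 CPM at day 0. For wild-type cells the values were 7.63 and 12.3 CPM at day 9, against 28.0 and 29.6 CPM at day 0. The other primase subunit, PRIM2, was at 8.49 and 8.44 CPM in mutant cells at day 9, against 31.1 and 27.4 CPM at day 0. Wild-type PRIM2 levels were 7.74 and 7.20 CPM at day 9, against 27.8 and 29.7 CPM at day 0. None of these groups overlapped. PRIM1 changed by -2.05 (SE 0.22) in mutant and -1.53 (SE 0.22) in wild-type cells on the log2 scale, and PRIM2 by -1.79 (SE 0.20) and -1.94 (SE 0.20). As sums the polymerase subunits moved less: POLA2 fell by 0.64 in mutant and by 0.57 in wild-type cells, and the catalytic subunit POLA1 by 0.51 and 0.46. Taken singly, the POLA1 sgRNAs had a median log2 change of -1.76 in mutant and -1.69 in wild-type cells, and those of PRIM1 had -1.94 and -1.44. The medians were -0.40 and -0.50 for POLA2 and -3.52 and -3.86 for PRIM2. The most abundant POLA1 sgRNA, at a mean of 20.6 CPM at day 0, changed by 0.05 in mutant and 0.03 in wild-type cells. The wild-type call of POLA1 was lost when the first wild-type day 9 library or the second wild-type day 0 library was left out.

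In polymerase delta 3 of 4 subunits fell in mutant and 2 of 4 in wild-type cells. POLD2, an accessory subunit, was at 5.98 and 7.40 CPM in mutant cells at day 9, against 22.1 and 25.0 CPM at day 0. In wild-type cells POLD2 was at 5.47 and 5.61 CPM at day 9, against 24.1 and 21.2 CPM at day 0. The groups were well separated, with log2 changes of -1.80 (SE 0.23) in mutant and -2.03 (SE 0.24) in wild-type cells. POLD3, an accessory subunit that binds PCNA, was at 11.7 and 8.90 CPM in mutant cells at day 9, against 20.7 and 17.3 CPM at day 0. Wild-type POLD3 levels were 3.85 and 7.22 CPM at day 9, against 17.4 and 20.4 CPM at day 0. Day 9 lay below day 0 in both lines, with log2 changes of -0.89 (SE 0.27, adjusted p = 0.0224, edgeR) in mutant and -1.77 (SE 0.28) in wild-type cells. The mutant call of POLD3 was lost when the second mutant day 9 library, either mutant day 0 library or either wild-type day 0 library was left out, with adjusted p-values of 0.0549 to 0.361.

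The catalytic subunit POLD1 fell by 0.42 (SE 0.13) in mutant cells, with an adjusted p of 0.0361 from edgeR. In wild-type cells its log2 change of -0.38 (SE 0.13) did not pass (adjusted p = 0.0717, edgeR). The mutant call was lost without the second mutant day 9 library, without any of the 4 day 0 libraries and without the most abundant sgRNA of each gene. The difference between the lines, -0.04 (SE 0.19), was small beside its error. In wild-type cells POLD1 was called with the replicate block (adjusted p = 0.0484, edgeR) and without either mutant day 9 library. POLD4, a small subunit that the complex can lack, had log2 changes of 0.09 in mutant and 0.20 in wild-type cells. In polymerase epsilon the catalytic subunit POLE fell by 0.77 (SE 0.17) in mutant and by 0.97 (SE 0.17) in wild-type cells, and POLE2 by 1.05 (SE 0.12) and 1.18 (SE 0.13). Without the first mutant day 0 library POLE was not called in mutant cells. The histone-fold subunits POLE3 and POLE4 did not pass, with log2 changes of -0.10 and 0.03 in mutant and 0.00 and -0.18 in wild-type cells.

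The clamp loader RFC opens the PCNA ring and closes it around DNA. RFC3 was at 3.41 and 2.93 CPM in mutant cells at day 9, against 50.2 and 44.99 CPM at day 0. In wild-type cells RFC3 was at 5.81 and 5.26 CPM at day 9, against 44.5 and 47.4 CPM at day 0. Both lines had day 9 far below day 0, with log2 changes of -3.93 (SE 0.18) in mutant and -3.05 (SE 0.17) in wild-type cells and adjusted p-values of 1.31e-17 and 1.86e-15 from edgeR. RFC4 was at 7.47 and 11.2 CPM in mutant cells at day 9, against 33.4 and 32.7 CPM at day 0. Wild-type RFC4 levels were 8.74 and 6.68 CPM at day 9, against 30.0 and 33.3 CPM at day 0. RFC4 thus changed by -1.81 (SE 0.20) in mutant and -2.04 (SE 0.20) in wild-type cells, with no overlap. RFC5 fell by 1.17 (SE 0.16) in mutant and by 1.29 (SE 0.16) in wild-type cells.

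RFC2 passed in mutant cells, with a log2 change of -0.35 (SE 0.10, adjusted p = 0.0151, edgeR), but not in wild-type cells, with -0.28 (SE 0.10, adjusted p = 0.0758). The mutant call was lost without the first mutant day 9 library or either mutant day 0 library, and the difference between lines was -0.07 (SE 0.14). In wild-type cells RFC2 was called without the first wild-type day 9 library and without the most abundant sgRNA of each gene, where it changed by -0.57. RFC1, the largest subunit, did not pass, with -0.10 in mutant and -0.30 in wild-type cells. PCNA itself was at 23.3 and 25.5 CPM in mutant cells at day 9, against 35.1 and 28.6 CPM at day 0. Wild-type PCNA levels were 32.4 and 32.6 CPM at day 9, against 25.8 and 29.7 CPM at day 0. So PCNA lay below its day 0 libraries in the mutant line and above them in the wild-type line, but neither log2 change passed, at -0.38 (SE 0.15, adjusted p = 0.119, edgeR) in mutant and 0.23 (SE 0.15, adjusted p = 0.424) in wild-type cells. In mutant cells DESeq2 called PCNA (adjusted p = 0.0389), limma on mean log2 CPM gave -1.70, and leaving out the first mutant day 0 library gave -0.23. Raising the minimum mean count to 100 gave -0.25 in mutant and 0.42 in wild-type cells, and dropping the most abundant sgRNA gave 0.00 in wild-type cells. The direction in wild-type cells depended on how sgRNAs were combined: the mean log2 CPM of the 5 sgRNAs, which gives each sgRNA the same weight, changed by -1.08 there (adjusted p = 0.00177, limma).

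RPA coats single-stranded DNA at the fork, and 2 of its 3 subunits fell in each line. RPA1, the largest subunit, fell by 1.03 (SE 0.21) in mutant and fell by 1.22 (SE 0.21) in wild-type cells, and RPA2 by 0.73 (SE 0.15) and 1.09 (SE 0.15). RPA1 had too few sgRNAs to be tested when the minimum mean count of an sgRNA was raised to 100. RPA3, the smallest subunit, did not pass, with -0.10 in mutant and -0.26 in wild-type cells. Neither gene of Okazaki fragment maturation fell. The flap nuclease FEN1 had log2 changes of 0.20 (SE 0.11) in mutant and 0.25 (SE 0.11) in wild-type cells, and the ligase LIG1 had 0.19 (SE 0.11) and 0.24 (SE 0.11). Their day 9 libraries lay above their day 0 libraries in both lines, yet only FEN1 in wild-type cells, and only without the second wild-type day 9 library, passed the threshold (adjusted p = 0.0292, edgeR).

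All 4 fork-protection genes fell in both lines. CLSPN encodes claspin, which couples the helicase to the polymerases and to the kinase CHEK1, and it fell by 1.48 (SE 0.17) in mutant and by 1.19 (SE 0.17) in wild-type cells. TIMELESS fell by 0.83 (SE 0.15) in mutant and by 1.04 (SE 0.16) in wild-type cells, and its partner TIPIN by 0.62 (SE 0.14) and 0.94 (SE 0.14). Leaving out the second mutant day 0 library ended the call of TIPIN in mutant cells. WDHD1, which links the helicase to polymerase alpha, fell by 0.81 (SE 0.11) in mutant and by 0.92 (SE 0.11) in wild-type cells.

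**Figure D2:**
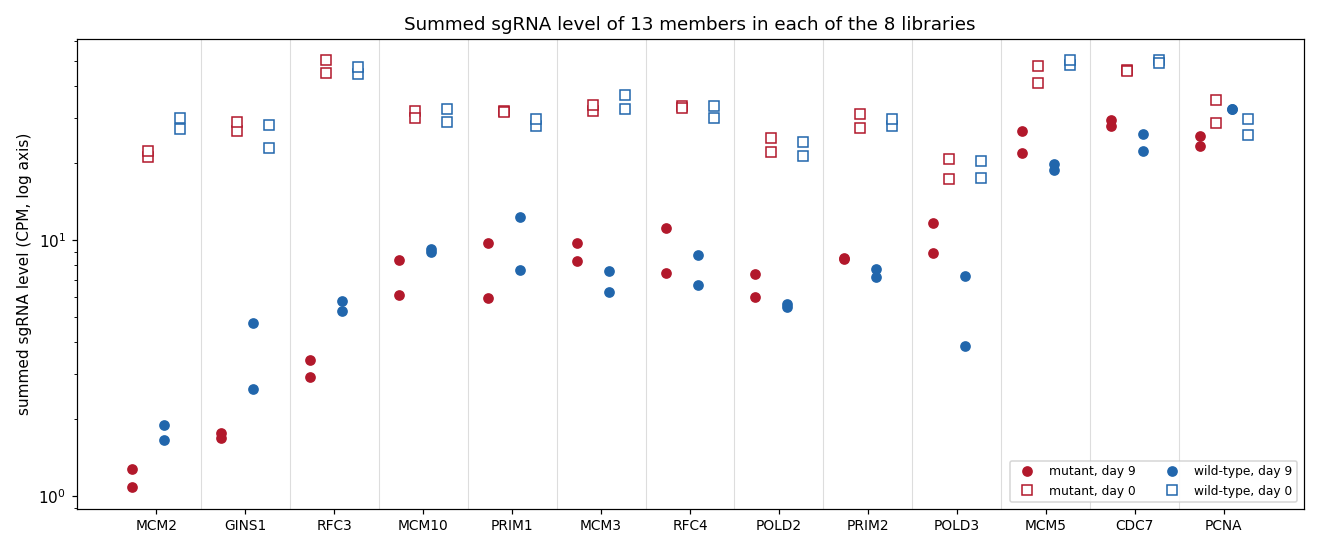
Summed sgRNA level (CPM, log axis) of 13 members, with filled circles for day 9 and open squares for day 0, in mutant (red) and wild-type (blue) cells. Day 9 lies below day 0 in both lines for every gene plotted except PCNA, whose wild-type day 9 libraries lie above their day 0 libraries.

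The sums hide how the sgRNAs of a gene differed among themselves. Tested singly with edgeR, 95 of the 254 member sgRNAs (37.4%) fell in mutant cells, against 5.77% of all 87897 sgRNAs tested. In wild-type cells 94 (37.0%) fell, against 5.91% of all sgRNAs. Of 1894 non-targeting control sgRNAs 11 (0.581%) fell in each line. The sgRNAs that fell in both lines numbered 83, and the log2 changes of the 254 sgRNAs had a Pearson correlation of 0.895 between lines. No member sgRNA rose in mutant cells, and 1 rose in wild-type cells, a FEN1 sgRNA with a log2 change of 0.68 (SE 0.19, adjusted p = 0.0307).

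Few members had a fall of every sgRNA. All of them fell for MCM2, GINS1, RFC3 and PRIM1 in mutant cells and for MCM2, GINS1 and RFC3 in wild-type cells. None fell for 15 members in mutant and 16 in wild-type cells, and the remaining 32 members in each line had both kinds. The 5 sgRNAs of MCM2 gave, in order along the genome, 7, 7, 8, 8 and 5 counts in the first mutant day 9 library, against 426, 160, 256, 315 and 146 counts in the first mutant day 0 library. In the first wild-type day 9 library the same sgRNAs gave 16, 10, 9, 34 and 5 counts, against 547, 236, 306, 521 and 178 counts in the first wild-type day 0 library. So each of the 5 was nearly emptied in these libraries. Counts given here and below are not scaled for library totals. The first mutant libraries held 39233340 counts in all at day 9 and 75971255 at day 0, and the first wild-type libraries 47353508 and 73728319. The member sgRNAs that fell had lower day 0 levels, with a median of 6.68 CPM against 8.66 CPM for the others in mutant cells, and 6.87 against 8.60 CPM in wild-type cells. Over the members, the most abundant sgRNA at day 0 had a median log2 change of -0.32 in mutant and -0.35 in wild-type cells. The least abundant sgRNA had medians of -1.31 and -1.47. A summed change gives abundant sgRNAs more weight, so a small sum can hold sgRNAs with larger falls. The day 0 libraries enter all of these measures, so this is a description.

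**Figure D3:**
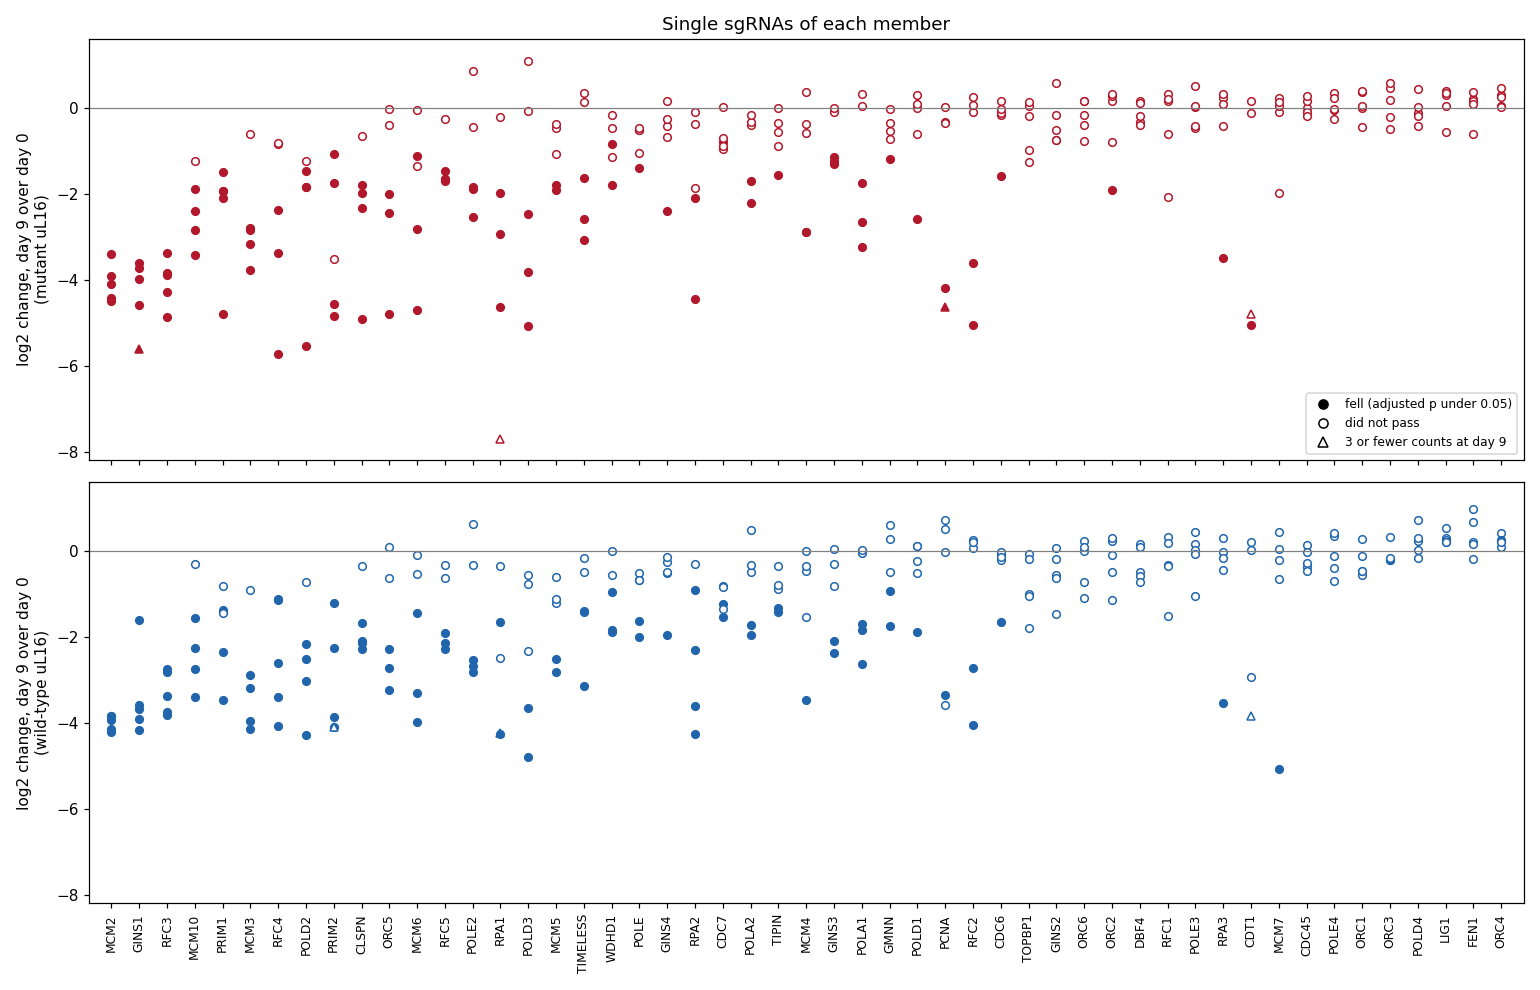
Log2 change, day 9 over day 0, of each sgRNA of the 51 members in mutant (top) and wild-type (bottom) cells, genes ordered by their summed change. Filled points fell; triangles had 3 or fewer counts in the 2 day 9 libraries together, so their fitted values are not measured sizes. MCM2, GINS1 and RFC3 have all sgRNAs well below 0, while RFC2, RPA3, PCNA and CDT1 have 1 or 2 sgRNAs far below 0 and the rest higher.

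Some members that did not pass, or passed weakly, as sums held sgRNAs that dropped steeply, and the genes named next were picked after their values were seen. Of the members not called, 5 in mutant and 6 in wild-type cells had at least 1 sgRNA that fell. All members not called together had 6 fallen sgRNAs of 99 in mutant (6.06%) and 7 of 109 in wild-type cells (6.42%). Over all sgRNAs tested the shares were 5.77% and 5.91%, but those include the sgRNAs of called genes, so they are not a matched background. The share over the sgRNAs of all genes not called was not computed. RFC2 had 2 sgRNAs, 342 and 345 bp from its lowest-placed sgRNA, with log2 changes of -5.06 (SE 0.52) and -3.62 (SE 0.39) in mutant and -4.04 (SE 0.49) and -2.72 (SE 0.37) in wild-type cells. Its other 3 sgRNAs, at 0, 155 and 243 bp, stayed between -0.09 and 0.24 in mutant and between 0.06 and 0.26 in wild-type cells. Thus the steep pair lay 3 bp apart at the far end of the targeted stretch.

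The sgRNAs of CDT1 also differed widely. The sgRNA at 0 bp had 0 and 3 counts in mutant day 9 libraries, against 68 and 45 at day 0, and 3 and 0 counts in wild-type day 9 libraries, against 20 and 44 at day 0. The sgRNA at 21 bp had 1 and 4 counts in mutant day 9 libraries, against 97 and 160 at day 0, and 15 and 3 counts in wild-type day 9 libraries, against 68 and 130 at day 0. The sgRNA at 0 bp passed in neither line (adjusted p = 0.103 in mutant and 0.242 in wild-type cells, edgeR), and the sgRNA at 21 bp passed in mutant cells (adjusted p = 0.00282) but not in wild-type cells (adjusted p = 0.0618). No CDT1 sgRNA fell in wild-type cells by this test. Those at 449 and 1148 bp did not pass either, with log2 changes of 0.17 and -0.12 in mutant and 0.20 and 0.03 in wild-type cells. Both low sgRNAs were scarce from the start, at a mean of 0.644 and 1.59 CPM at day 0 against 11.3 and 9.77 CPM for the others, so they weighed little in the sum. By mean log2 CPM, CDT1 changed by -2.04 (SE 0.33, adjusted p = 0.00131, limma) in mutant and -1.50 (SE 0.33, adjusted p = 0.0106) in wild-type cells.

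In PCNA sgRNAs a few bases apart gave different values. Its sgRNA at 3 bp had 1 and 2 counts in mutant day 9 libraries, against 44 and 82 at day 0, and 5 and 3 counts in wild-type day 9 libraries, against 72 and 68 at day 0. Its sgRNA at 6 bp had 1 and 14 counts in mutant day 9 libraries, against 155 and 210 at day 0, and 14 and 4 counts in wild-type day 9 libraries, against 99 and 165 at day 0. The sgRNA at 6 bp fell in both lines, and the sgRNA at 3 bp passed in mutant (adjusted p = 0.0352, edgeR) but not in wild-type cells (adjusted p = 0.0736). The sgRNA at 0 bp, on the opposite strand, changed by 0.02 (SE 0.28) in mutant and -0.02 (SE 0.28) in wild-type cells. Those at 379 and 467 bp were at -0.33 and -0.36 in mutant and at 0.50 and 0.71 in wild-type cells, and none of these values passed. For PCNA too the sgRNAs with the lowest day 9 counts were the scarce ones at day 0, at 0.948 and 2.21 CPM, against 7.55 to 9.68 CPM for the rest.

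The sgRNAs of RPA3, ORC5 and MCM4 differed as well. A single RPA3 sgRNA, at 375 bp, changed by -3.50 (SE 0.50) in mutant and -3.53 (SE 0.51) in wild-type cells, and the other 4 stayed between -0.43 and 0.32 in mutant and between -0.44 and 0.30 in wild-type cells. In ORC5 the sgRNAs at 46, 56 and 59 bp changed by -4.79, -2.45 and -2.00 in mutant and by -3.25, -2.72 and -2.29 in wild-type cells, while those at 0 and 14 bp did not pass. In MCM4 the sgRNA at 53 bp fell in both lines, by 2.89 in mutant and 3.46 in wild-type cells. Its sgRNA at 43 bp fell by 2.89 in mutant cells, and its change of -1.54 in wild-type cells did not pass (adjusted p = 0.0903, edgeR). MCM7 held a sgRNA at 888 bp with 61 counts over the mutant day 9 libraries and 5 over the wild-type day 9 libraries, which passed in wild-type cells only (adjusted p = 0.000752, edgeR). The 2 lines were not shown to differ at that sgRNA (adjusted p of the difference 0.959). Knockdown by each sgRNA was not measured, so what sets the steep sgRNAs apart was not tested.

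**Figure D4:**
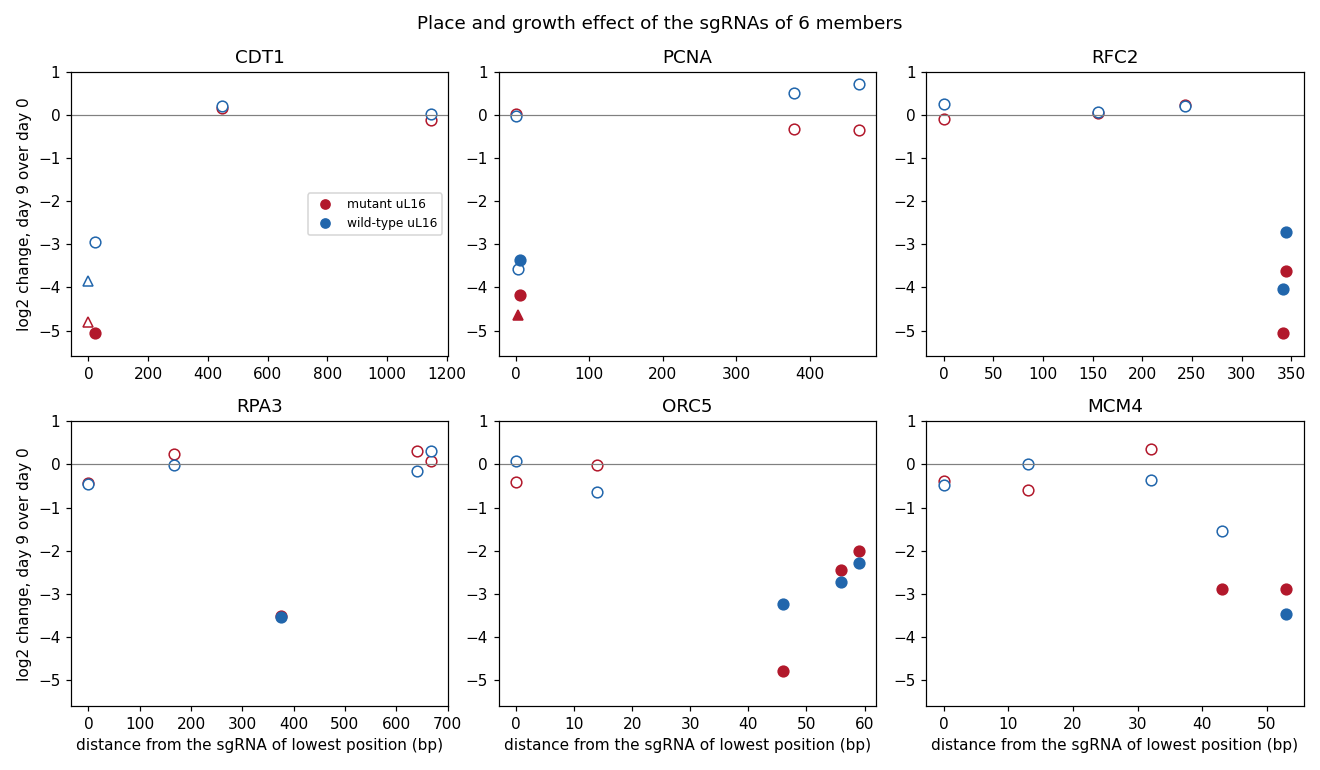
Log2 change, day 9 over day 0, of each sgRNA of CDT1, PCNA, RFC2, RPA3, ORC5 and MCM4 against its distance in bp from the lowest-placed sgRNA of the gene, in mutant (red) and wild-type (blue) cells. Filled points fell and triangles had 3 or fewer counts at day 9. In RFC2 the sgRNAs at 342 and 345 bp fell in both lines; in PCNA the sgRNA at 6 bp fell in both lines and the sgRNA at 3 bp in mutant cells, and those at 379 and 467 bp lie above 0 in wild-type cells.

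For 14 members the sgRNAs of another tested gene lay within 1 kb of a member sgRNA, so a member sgRNA may act on both genes. Of these members, MCM4, POLE, RPA1 and WDHD1 fell in both lines. Their neighbours PRKDC, PXMP2, SMYD4 and SOCS4, targeted with their own sgRNAs, had log2 changes between -0.25 and 0.39 in mutant and between -0.23 and 0.21 in wild-type cells, and none of the 4 fell. SMYD4, beside RPA1, rose in mutant cells (adjusted p = 0.0295, edgeR). In the other direction, VPS35, beside ORC6, changed by -1.33 in mutant and -1.06 in wild-type cells, while ORC6 did not pass. PRPF38A, beside ORC1, fell by 0.30 in mutant cells. A fall of both the member and its neighbour was seen in 0 of the 14 pairs in either line. Only 4 of these members fell, and 9.07% of all genes fell in mutant and 9.28% in wild-type cells. With so few pairs the count cannot tell whether a member sgRNA acts on a neighbour, which was not tested.

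Another 44 replication genes, listed for regulators of origin firing, fork processing and the S-phase checkpoint, were measured in the same fit. In mutant cells 17 of 44 fell (38.6%), where 9.07% of all genes fell. In wild-type cells 21 of 44 fell (47.7%), where 9.28% of all genes fell. None rose, where only 0.798% of all genes rose in mutant and 0.986% in wild-type cells. The medians were -0.28 in mutant and -0.35 in wild-type cells. The same all-gene shares apply to the smaller groups that follow. Of 10 checkpoint genes 8 fell in each line. ATR, the kinase that senses stalled forks, fell by 1.31 (SE 0.12) in mutant and by 1.78 (SE 0.12) in wild-type cells. Its effector kinase CHEK1 fell by 0.99 (SE 0.08) in mutant and by 0.95 (SE 0.09) in wild-type cells, and HUS1, a subunit of the checkpoint clamp, by 0.73 (SE 0.11) and 1.09 (SE 0.11). Origin firing and licensing regulators fell in 5 of 17 cases in mutant and 7 of 17 in wild-type cells, among them the kinase CDK1, which fell by 1.06 (SE 0.13) in mutant and by 0.84 (SE 0.13) in wild-type cells. Fork processing genes fell in 4 of 17 cases in mutant and 6 of 17 in wild-type cells. In that group TOP2A, which untangles replicated DNA, fell by 1.58 (SE 0.17) in mutant and by 1.31 (SE 0.17) in wild-type cells, and the nuclease DNA2 by 0.88 (SE 0.12) and 0.99 (SE 0.12).

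The screen asks whether a knockdown acts differently on growth in cells with mutant uL16. The difference of the day 9 changes, mutant minus wild-type, passed the threshold for 0 of 51 members, where 0.0171% of all genes passed. At an unadjusted p under 0.05 there were 5 members (9.80%), where 5.68% of all genes were under it, 3 more negative in mutant and 2 more negative in wild-type cells. DESeq2 called 1 member, RFC3. Over all members the difference was negative for 20 and positive for 31, with a median of 0.11, and the median of all genes was -0.0015.

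RFC3 and GINS1 had the most negative differences of the 51 members. RFC3 differed by -0.87 (SE 0.24, adjusted p = 0.544, edgeR), and DESeq2 gave an adjusted p of 0.0217. Over the alternatives the edgeR and limma adjusted p of RFC3 stayed between 0.201 and 1.00. GINS1 differed by -1.23 (SE 0.37, adjusted p = 0.713, edgeR). Without the first wild-type day 9 library the GINS1 difference was -1.59 (adjusted p = 0.0238), and without the second it was -0.73 (adjusted p = 0.529), so this value rests on which wild-type library is kept. Without the most abundant sgRNA of each gene it was -0.39. The GINS1 sgRNA that differed most between the lines, at 231 bp, had log2 changes of -3.73 (SE 0.45) in mutant and -1.61 (SE 0.40) in wild-type cells. PCNA differed by -0.61 (SE 0.21), and by -0.37 without the most abundant sgRNA of each gene. PRIM1 differed by -0.52 (SE 0.31). The PRIM1 value was -0.88 and -0.18 without the first and the second mutant day 9 library, and -0.83 and -0.14 without the first and the second wild-type day 9 library.

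On the other side, POLD3 differed by 0.88 (SE 0.38), MCM5 by 0.46 (SE 0.19), MCM3 by 0.45 (SE 0.26) and CDC7 by 0.35 (SE 0.18), each more negative in wild-type cells. None passed, with adjusted p-values of 0.865 to 0.889 from edgeR. The POLD3 difference was 0.49 without the first wild-type day 9 library, 1.40 without the second, and 0.43 with limma on mean log2 CPM. The CDC7 difference was 0.72 without the most abundant sgRNA of each gene. MCM2, with the strongest fall of all members, differed by -0.17, and an interval of 2 SE on each side ran from -0.96 to 0.63. The interval for MCM6 ran from -0.44 to 0.46 and for ORC5 from -0.30 to 0.35, so differences of that size between lines are not excluded by these libraries.

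**Figure D5:**
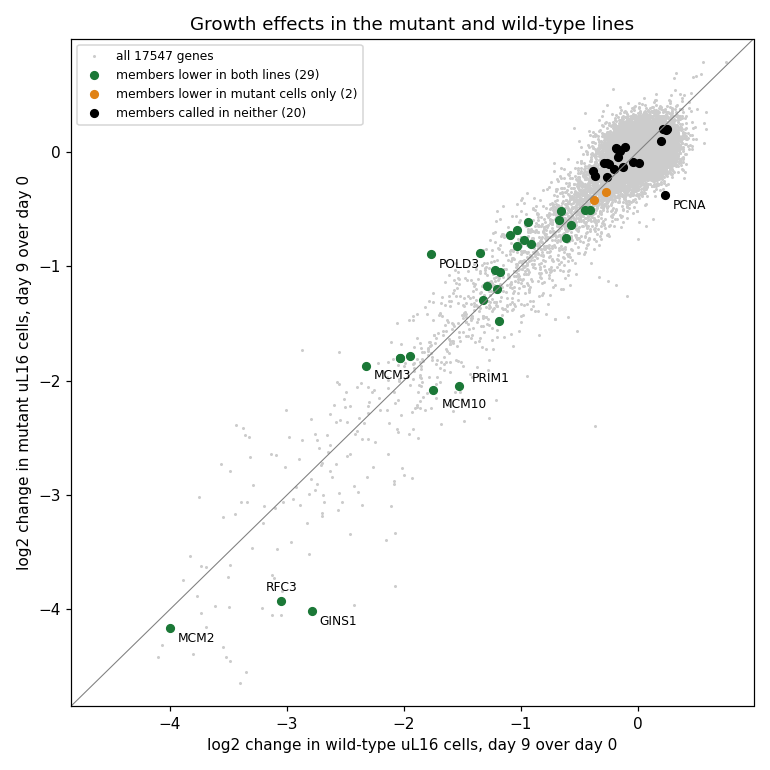
Log2 change, day 9 over day 0, in mutant cells (vertical) against wild-type cells (horizontal) for all 17547 genes (grey) and the 51 members: 29 that fell in both lines (green), 2 that fell in mutant cells only (orange) and 20 called in neither (black). The members follow the diagonal line of equal change; GINS1 and RFC3 lie below it and POLD3 above it.

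Setting the lines side by side at day 9 gave 1 member of 51, where 0.239% of all genes passed. RFC3 was lower in mutant than in wild-type cells by 0.82 on the log2 scale, a value of -0.82 (SE 0.18, adjusted p = 0.0392, edgeR). The call was not stable: it was lost without the second mutant day 9 library, without the first wild-type day 9 library and without any of the 4 day 0 libraries, with adjusted p-values of 0.0569 to 0.159. It was also lost without the most abundant sgRNA of each gene, where the value was -0.55 (adjusted p = 0.426). GINS1 had a value of -1.10 (SE 0.29, adjusted p = 0.105), and it passed without the first wild-type day 9 library (adjusted p = 0.00514). POLD3 had a value of 0.88 (SE 0.28, adjusted p = 0.173), and it passed without the second wild-type day 9 library (adjusted p = 0.022).

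At day 0 no member passed the test between the lines. None of 51 passed in edgeR, where 0% of all genes passed, none passed in DESeq2 or limma, and none had an unadjusted p under 0.05, where 1.38% of all genes did. That share is smaller than 0.05 itself, so the test may be strict at day 0. Between the lines at day 9, 12.1% of all genes had an unadjusted p under 0.05. The spread was fitted over both days together, and no member passed when only the day 9 libraries were fitted. The members were present at a median of 42.2 CPM at day 0, against 55.1 CPM for all genes tested, and single member sgRNAs at 8.05 CPM, against 10.1 CPM for all sgRNAs and 10.0 CPM for the controls. Whether some loss had already occurred by day 0 was not tested, since no library from before transduction or from the plasmid pool was analysed here.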

How the data were processed

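Guide RNA sequences were amplified from genomic DNA and counted in 8 libraries. The authors deposited raw read counts per sgRNA; per the file headers, bases 1 to 39 of each forward read were kept and matched to a human CRISPRi version 2 library. The submitters' processing notes name hg38, and the sources used here do not name the counting program. Positions in sgRNA names put only 2 of 45 members within 5 kb of their GRCh38.p14 promoter. They were therefore used only as distances between sgRNAs, within a gene or between genes of the same chromosome.

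Counts of sgRNAs with a mean of 20 or more, from the main promoter set, were summed for genes with 3 or more. R 4.3.3 and edgeR 4.0.16 (TMM, glmQLFit, glmQLFTest) fitted 4 group means over 8 libraries, with 4 residual degrees of freedom, and single sgRNAs were tested likewise. The spread of each gene was estimated with information from all genes tested (29.3 prior degrees of freedom), so p-values do not rest on its own libraries alone. An SE is the log2 change divided by the root of the test statistic. Alternatives used DESeq2 1.42.0 and limma 3.58.1. The code was tested on simulated counts. Reads are PCR copies with no molecular identifiers, so depth speaks to counting error only. Same-numbered libraries were not paired in the labels.

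Members, lists and tests were chosen with earlier results of these data known. Library values are given for the 8 members with the most negative change in each line, any called higher, and the 4 with the smallest p of the difference in each direction. For the 44 other genes, the 4 with the smallest p in each line are named. A planned test of alternative-promoter sgRNAs found none for the members.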

Additional observations from a re-analysis of the deposited data

How the results depend on the processing

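The counts of falling members were close across settings. Under RLE size factors, scaling to control sgRNAs, DESeq2, no minimum count, a mean count of 100, limma on mean log2 CPM (prior count 2), dropping the most abundant sgRNA, pooling all promoter sets, fitting only the libraries compared and the replicate block, 29 to 34 members fell in mutant and 28 to 38 in wild-type cells. Requiring a log2 change over 1 as well left 15 in mutant and 20 in wild-type cells. Leaving out each library in turn gave 26 to 31 in mutant and 28 to 31 in wild-type cells, and for single sgRNAs 70 to 103 and 71 to 102 (alternatives for sgRNAs were chosen after seeing the data). The difference between lines had 1 call with DESeq2 (RFC3) and 0 to 1 with a library left out. Mutant against wild-type at day 9 had 3 calls with DESeq2 (GINS1, POLD3, RFC3), 0 to 2 with a library left out, and 0 with a mean count of 100, limma, the most abundant sgRNA dropped, all promoter sets pooled, a log2 change over 1 as well, only the libraries compared, or the replicate block. Day 0 had 0 under every setting run. The replicate block gave 31 members in mutant and 30 in wild-type cells, 0 for the difference; deviations of same-numbered libraries correlated at 0.044 in the mutant and 0.016 in the wild-type line, so the numbers were not treated as pairs. Of the values of the 13 members given by library, 593 kept direction and call, 4 gained and 6 lost a call, and 1 reversed: PCNA in wild-type cells, -1.08 with limma on mean log2 CPM, which weights scarce and abundant sgRNAs alike; the cause was not tested further. Sizes moved too. Over all settings, library omissions included, the mutant log2 change ran from -2.97 to -1.75 for MCM3, -2.89 to -1.61 for PRIM2 and -1.93 to -0.70 for POLD3. That of MCM2 moved less, from -4.31 to -3.92, and that of RFC3 from -4.02 to -3.80. The scarcest member sgRNAs limit precision, since 4 in mutant and 3 in wild-type cells had 3 or fewer counts at day 9.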
